A study of Mus musculus with 6 samples.

Results

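Nuclear receptors and the proteins that work with them were followed in macrophages sorted from tumours, as 35 genes: 28 receptors, 5 coregulators and the glucocorticoid-induced genes Fkbp5 and Tsc22d3. They were taken by symbol from a deposited table of 21878 genes, in which all 35 were found. The study compared mice with floxed Trmt61a alleles and LysM-Cre (KO, 3 libraries) with mice that carry the same floxed alleles without the Cre (WT, 3 libraries). LysM-Cre is expressed from the lysozyme locus in myeloid cells, so the deletion is not limited to tumour macrophages. The TRMT61A protein, together with TRMT6, methylates adenosine in tRNA and is the subunit that carries out the reaction. Both groups had received MC38 cells, which derive from a mouse colon carcinoma, and tumour macrophages were isolated by FACS 14 days later. Whether each library came from its own mouse is not stated, and every p-value therefore rests on library-to-library spread that may be technical. The sources used here give no age, sex or sorting gate.

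Nuclear receptors are transcription factors that bind DNA through zinc fingers and, in most cases, change their activity when a small lipid-soluble molecule binds them. Without ligand, many of them hold corepressors such as NCOR1 at their target genes, and ligand exchanges these for coactivators of the SRC family. In macrophages, LXR and PPAR receptors are known for the control of cholesterol and fatty acid handling, and the glucocorticoid receptor for the restraint of inflammatory genes. RXR is the shared partner of RAR, LXR, PPAR, the vitamin D receptor and the thyroid hormone receptors.

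Library totals were 18839026 to 20313597 counts in KO and 19622763 to 20247004 counts in WT. Trmt61a had 41, 33 and 50 counts in KO and 157, 138 and 148 counts in WT, so every library followed its label. Markers of macrophages (12 genes, Csf1r and C1qa among them) summed to 12300 to 13230 CPM in KO and 12620 to 13980 CPM in WT, where CPM is the usual depth-scaled count, here with library totals scaled by TMM. Neutrophil markers (13 genes, none at 0 in all libraries) summed to 132 to 182 CPM in KO and 85.7 to 120 CPM in WT, while their defining surface marker Ly6g had 0, 0 and 3 counts in KO and 0, 0 and 0 in WT. T and NK cell markers (14 genes, none at 0 in all libraries) summed to 171 to 245 CPM in KO and 134 to 172 CPM in WT. Most of each sum came from Il7r. KO replicate 2 stood apart on the first principal component, at -29.4, while the other libraries lay between -5.3 and 18.0. WT replicate 1 lay at the opposite end, at 18.0.

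Several receptors were at or near 0 in both groups. Rxrg, Nr1h4 (the bile acid receptor FXR) and Nr5a2 (LRH-1) had no count in any library, which allows up to 3 counts, or 0.148 to 0.158 CPM, in each. Another 4 members were too low to test. Rarb had 0, 0 and 4 counts in KO and 2, 5 and 1 counts in WT. Ppara, the fatty acid receptor of liver and muscle, had 2, 2 and 0 counts in KO and 0, 0 and 0 counts in WT. Nr3c2, the mineralocorticoid receptor, had 1, 3 and 0 counts in KO and 4, 0 and 4 counts in WT. Thrb had 2, 2 and 2 counts in KO and 5, 8 and 2 counts in WT. No fold change was taken from these low counts. The remaining 28 members passed the filter on low counts.

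Levels of different genes were compared as CPM per kb of merged GENCODE exons. Nr1h2, which encodes the oxysterol receptor LXR beta, was the highest member in both groups, at 32.4 ± 4.85 CPM per kb in KO and 29.0 ± 1.73 CPM per kb in WT (SD, n = 3 each). Its 3 libraries did not overlap those of the next gene in either group. Tsc22d3, Rara, Rxra, Ncoa3, Rarg, Vdr and Ncor1 followed in KO, from 20.7 ± 0.707 CPM per kb for Tsc22d3 to 13.7 ± 0.475 CPM per kb for Ncor1 (SD, n = 3), and each overlapped its neighbour in that order. The same 8 genes led in WT, where Ncoa3 was second at 17.1 ± 0.453 CPM per kb and Vdr last of them at 12.2 ± 2.63 CPM per kb (SD, n = 3). At the lower end were Rora, Nr2f2, Esr1, Pparg and Nr6a1, with means between 0.226 and 1.08 CPM per kb in KO and between 0.204 and 0.811 CPM per kb in WT. The order below Nr1h2, also among the 8 leading genes, depends on the length used. With the longest coding transcript, Nr1h2 stayed at place 1 in both groups. Tsc22d3 was at place 2 in both, where it was at place 2 in KO and 4 in WT with merged exons. Ncoa3 went from place 5 to 10 in KO and from 2 to 9 in WT, and Vdr to place 12 in both. Ppard moved to place 5 in KO and 4 in WT, where it was 13 in both with merged exons.

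**Figure D1:**
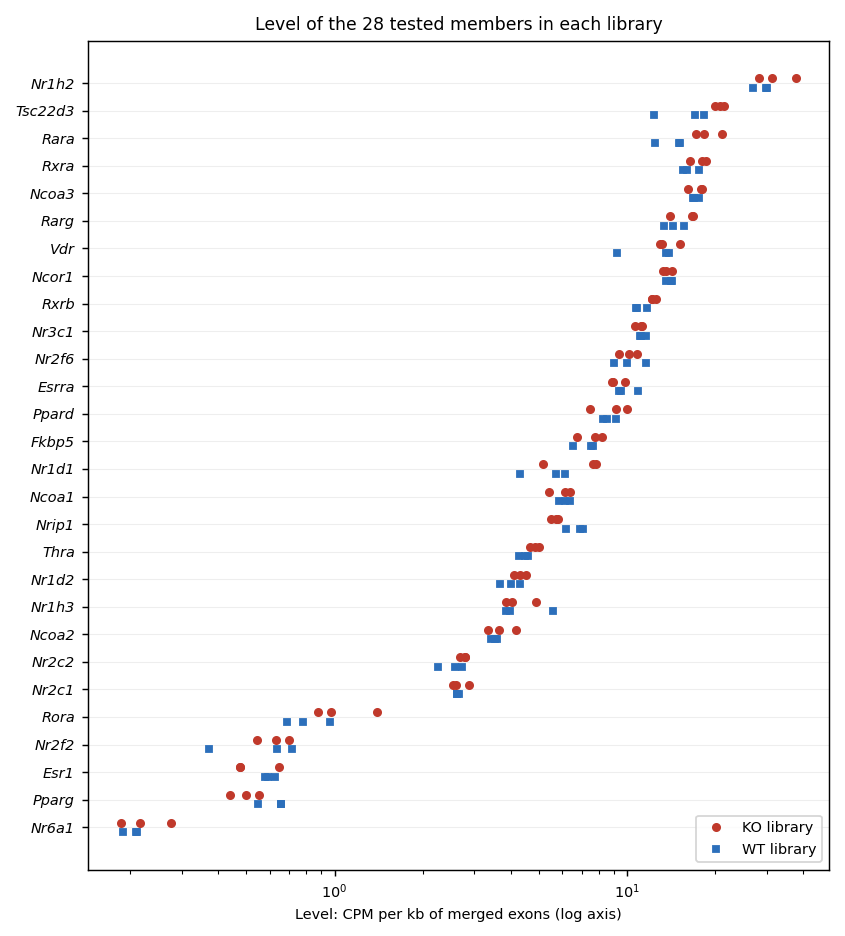
Level of each of the 28 tested members in CPM per kb of merged exons (log axis), ordered by the KO mean. Each point is 1 library, KO circles above WT squares. Nr1h2 is at the top with 28.1 to 37.7 in KO and 27.0 to 30.1 in WT, and Nr6a1 at the bottom with 0.187 to 0.276 in KO and 0.189 to 0.212 in WT.

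In the LXR, PPAR, RXR, REV-ERB and SRC families the same member had the largest mean share in KO and in WT. Nr1h2 made up 88.3 ± 0.833% of the length-scaled LXR level in KO and 86.6 ± 3.22% in WT (SD, n = 3 each; exact permutation p = 0.6, two-sided). Ppard, the widely expressed PPAR, made up 94.4 ± 1.12% of the PPAR level in KO and 93.3 ± 0.472% in WT (SD, n = 3 each; exact p = 0.3). Pparg, the receptor of fat cells and of alveolar macrophages, made up 5.39 ± 1.28% in KO and 6.68 ± 0.472% in WT (SD, n = 3 each; exact p = 0.3). Retinoic acid receptor RNA was divided between Rara, with 54.3 ± 4.99% in KO and 49.5 ± 1.61% in WT (SD, n = 3 each; exact p = 0.2), and Rarg, with 45.6 ± 4.95% in KO and 50.4 ± 1.57% in WT (SD, n = 3 each; exact p = 0.2). Rara thus had the larger mean share in KO and Rarg in WT, and the libraries of the groups overlapped. Rxra held 59.0 ± 1.53% of the RXR level in KO and 59.6 ± 2.25% in WT (SD, n = 3 each; exact p = 0.7), the rest being Rxrb. Among the SRC coactivators Ncoa3 held 64.2 ± 0.643% in KO and 64.0 ± 0.47% in WT (SD, n = 3 each; exact p = 0.8). With 3 libraries a group the smallest p that the exact test can give is 0.1, and none of these shares reached it. The shares were taken with merged exons and depend on the length used. With the longest coding transcript Rxra held 51.4% in KO and 52.1% in WT on average, and Ncoa3 56.4% in both. In KO replicate 3 Rxrb was then the larger, at 50.25%.

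**Figure D2:**
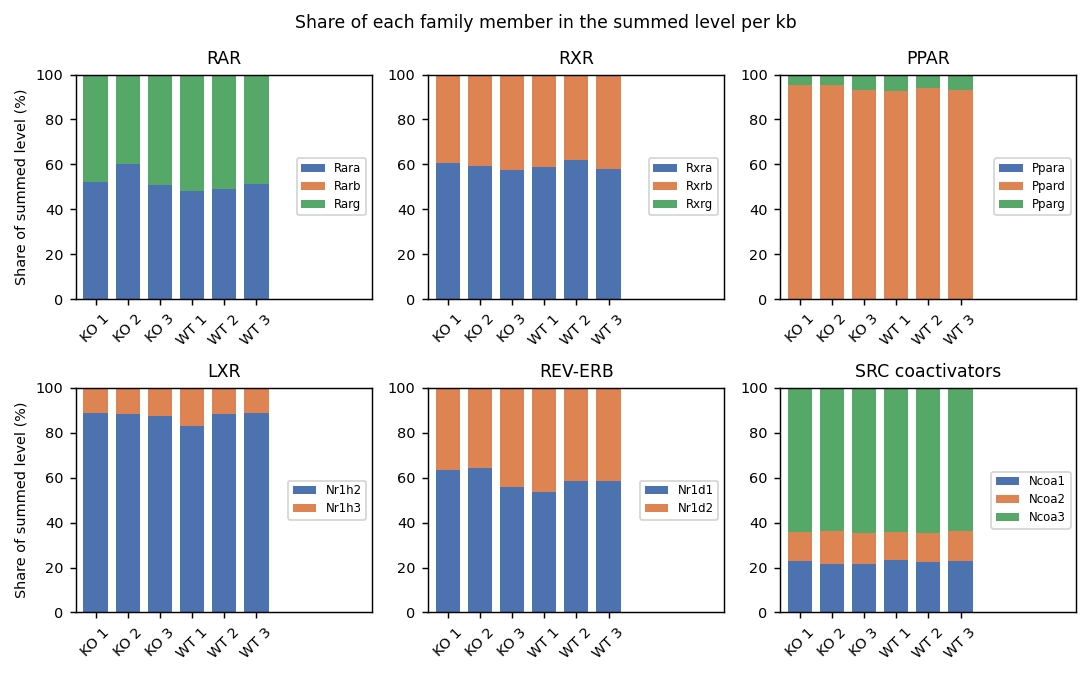
Share of each gene in the summed length-scaled level of its family, in percent, for each KO library and then each WT library. Ppard fills 93.1 to 95.2% of the PPAR bars in KO and 92.9 to 93.8% in WT, and the shares of Rara run from 50.7 to 60.03% in KO and from 48.3 to 51.3% in WT.

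In the comparison of KO with WT, none of the 28 tested members passed (edgeR, Benjamini-Hochberg adjusted p under 0.05 over 12136 genes). Across all genes 2 passed, or 0.0165%, both lower in KO. The deleted gene Trmt61a was 1 of them (log2 -1.82, edgeR adjusted p = 0.04265), so it passed by a small margin. The adjusted p-values of the members ran from 0.694 to 0.981, and DESeq2 also called 0 of them, where it called 0.191% of the genes it adjusted. At an unadjusted p under 0.05 Rara and Tsc22d3 were higher in KO, where 3.86% of all tested genes were, and Nrip1 was lower, where 3.06% were. Together that is 10.7% of the tested members, against 6.92% of all tested genes. Without KO replicate 3 the number of members higher was 5. In that setting 6 members had such a p in either direction, and so did 1520 of 12235 genes. With all 6 libraries 840 of 12136 genes did. The median log2 fold change of the members was 0.09, with 19 above 0 and 9 below, where the median of all tested genes was -0.001 and 49.8% lay above 0. Without KO replicate 2 the number above 0 was 15, and it was 17 without both KO replicate 2 and WT replicate 1, a setting chosen after the data were seen. The 95% intervals of the log2 fold change, as edgeR's standard errors give them, stayed between -0.943 and 0.856 for all 28 members, and those of 19 members stayed within 0.5 of 0 on either side. In bulk libraries, fewer cells that express a gene and less of its RNA in each cell cannot be told apart.

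**Figure D3:**
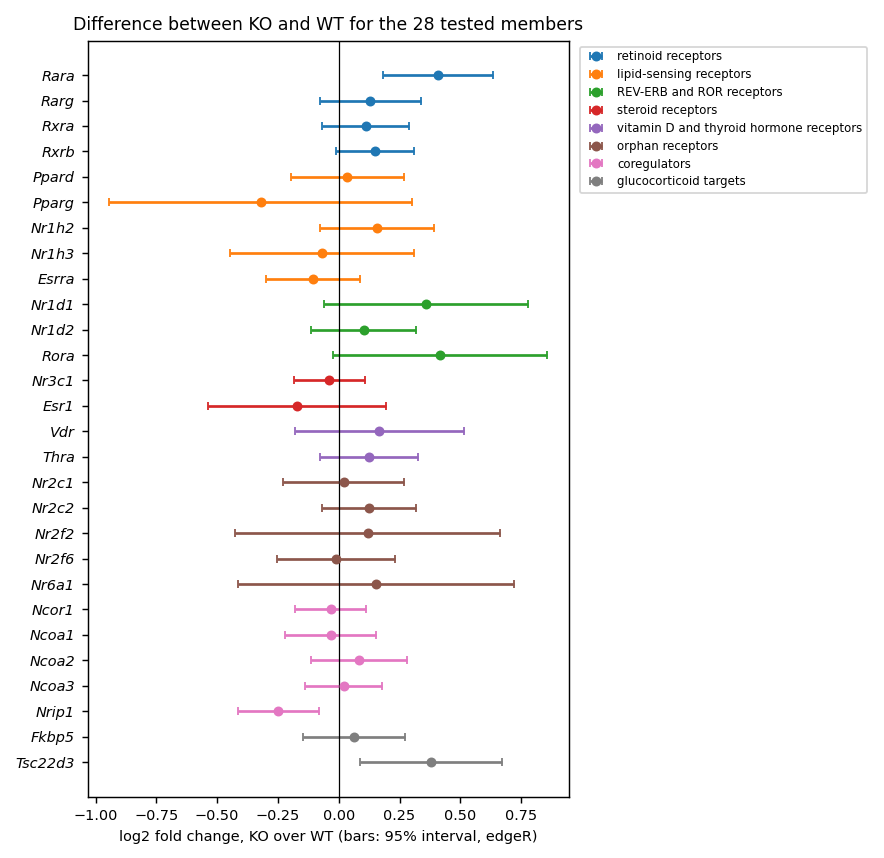
log2 fold change of KO over WT for the 28 tested members, coloured by role, with bars for the 95% interval of the edgeR fit. The intervals of Rara and Tsc22d3 lie above 0 and that of Nrip1 below 0, before any adjustment for multiple tests, and the other 25 include 0.

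KO libraries lay wholly above WT libraries for 4 members, Rara, Rxrb, Thra and Tsc22d3, or 14.3%, where 6.11% of all tested genes did so. They lay wholly below for Nrip1, or 3.57%, where 6.3% of all tested genes did so. Extreme values were spread unevenly over the libraries. KO replicate 2 was the highest of the 6 for 10 of the 28 members (35.7%, against 24.8% of all tested genes), and WT replicate 1 was the lowest for 13 (46.4%, against 20.5% of all tested genes). Those are the libraries at the ends of the first principal component. Leaving out 1 library moved the log2 value of 23 members by over 1.5 times. Among them, without WT replicate 1, the value was 0.08 for Rarg, -0.03 for Esrra, 0.05 for Nr1d2 and 0.05 for Nr2c2.

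Retinoid receptors had the member with the smallest p. Rara (NCBI Gene 19401, chromosome 11, 98927818 to 98974942, plus strand, GRCm38) encodes retinoic acid receptor alpha, which turns genes on when all-trans retinoic acid binds it. It was at 80.0, 91.8 and 74.9 CPM in KO libraries, against 54.4, 65.5 and 65.9 CPM in WT libraries. All KO values were above all WT values, with WT replicate 1 lowest and KO replicate 2 highest. The log2 fold change was 0.41 (SE 0.102, 95% interval 0.18 to 0.63), a ratio of 1.33, and it did not pass (edgeR adjusted p = 0.694; unadjusted p = 0.00249, rank 37 of 12136). Leaving out any 1 library gave log2 values from 0.32 to 0.47. Over the alternatives tried its adjusted p ran from 0.156 to 0.9995, the lowest being that of DESeq2. The neutrophil marker sums given above were also higher in every KO library than in every WT library, and Mmp9, at 125.2, 46.8 and 64.8 CPM in KO and 47.7, 30.7 and 40.2 CPM in WT, made up much of them. Without Mmp9, a setting chosen after the data were seen, the sums were 57.1, 100.9 and 67.7 CPM in KO and 72.1, 54.9 and 57.7 CPM in WT, which overlap. Csf3r, at 32.7, 60.3 and 37.2 CPM in KO and 50.3, 32.9 and 40.4 CPM in WT, made up most of each of those sums. Of the 7 tested neutrophil markers, 6 had a log2 value above 0 and 1 below, and 0 passed with edgeR. Unadjusted, 4 were higher and 0 lower at p under 0.05, or 57.1%, where 6.92% of all tested genes had such a p. The part of these markers in the Rara values was not tested.

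Rarg, its close relative, was at 71.4, 59.7 and 70.8 CPM in KO and 56.8, 66.7 and 61.0 CPM in WT, and the groups overlapped (log2 0.13, SE 0.0931). The RXR genes encode the partners of RAR. Rxra was at 102, 98.7 and 89.3 CPM in KO and 84.5, 96.1 and 87.7 CPM in WT, overlapping (log2 0.11, SE 0.0798). Rxrb was at 48.5, 49.7 and 48.3 CPM in KO and 43.1, 42.6 and 46.5 CPM in WT, so KO lay above WT by a small margin (log2 0.15, SE 0.0721, edgeR adjusted p = 0.725).

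Rarb is a textbook target of retinoic acid in the mouse, through a direct repeat just upstream of its start, and it is shown because its RNA was near 0 while Rara and Rarg were not. The 250 bases before its start in RefSeq (GRCm38.p6, chr14:16575477-16575726, minus strand) are given with the repeat and the base before it in capitals, 53 to 37 bases before the start. For Rara, the 250 bases before 1 of its 4 starts in RefSeq (GRCm38.p6, chr11:98939461-98939710, plus strand) are set beside it, with each GTTCA on either strand in capitals. That start was chosen because none of the others had more copies of GTTCA before it.
Rarb: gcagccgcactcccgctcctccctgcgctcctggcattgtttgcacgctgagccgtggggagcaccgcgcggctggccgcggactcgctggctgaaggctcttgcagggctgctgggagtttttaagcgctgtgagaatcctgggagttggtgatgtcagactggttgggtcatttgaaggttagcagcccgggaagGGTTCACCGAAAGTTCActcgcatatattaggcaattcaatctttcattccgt
Rara: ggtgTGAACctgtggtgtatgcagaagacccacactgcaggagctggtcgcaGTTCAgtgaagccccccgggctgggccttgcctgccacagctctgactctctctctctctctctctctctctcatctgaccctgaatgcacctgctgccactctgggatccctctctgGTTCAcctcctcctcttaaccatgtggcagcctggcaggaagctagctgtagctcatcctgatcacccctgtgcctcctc
A pair of GTTCA with NNNNNN between them, searched on both strands, occurred in 22 of 32851 such windows of all genes (0.067%) and, among the 49 windows of 31 members, in that of Rarb. The shorter GTTCA, which the repeat contains, occurred in 30.5% of all windows, and the 3 copies before Rara are a description of these letters, not a site. Of the merged exons of Rarb, 34.1% lie opposite exons of Top2b, and counts without a stated strand setting cannot assign reads there with certainty.

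The other genes of the retinoid system showed no called difference. Of 17 listed genes of retinoid metabolism and response, 11 were tested and 0 passed in either direction, with a median log2 value of -0.02. Of those tested, 0 had an unadjusted p under 0.05, where 6.92% of all tested genes had such a p. The enzymes that make retinoic acid were low: Aldh1a1 had no count in any library, Aldh1a3 had 1, 0 and 0 counts in KO and 1, 0 and 0 counts in WT, and Aldh1a2 was at 0.364, 2.94 and 3.01 CPM in KO and 0.663, 1.71 and 1.10 CPM in WT (log2 0.86, SE 0.670). Tgm2, a transglutaminase that retinoic acid induces, was at 1821, 2074 and 1754 CPM in KO and 2311, 1972 and 1992 CPM in WT (log2 -0.15, SE 0.0952). Dhrs3, a retinal reductase, had a log2 value of 0.12 (SE 0.0865), and Stra6, the receptor for retinol-binding protein, one of -0.42 (SE 0.355).

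Of the lipid-sensing receptors, with which the orphan receptor Esrra was grouped, the 5 tested members had log2 values from -0.32 to 0.16. Nr1h2 was at 105, 126 and 94.4 CPM in KO and 90.6, 100.4 and 101 CPM in WT, overlapping (log2 0.16, SE 0.105). Its value was 0.034 without KO replicate 2. Nr1h3, LXR alpha, the form more restricted to macrophages, liver and fat, was at 9.71, 12.2 and 10.2 CPM in KO and 14.0, 10.03 and 9.67 CPM in WT (log2 -0.07, SE 0.170). WT replicate 1 was the highest library, and without it the value was 0.122. Ppard was at 68.8, 75.1 and 56.1 CPM in KO and 64.3, 62.2 and 68.6 CPM in WT (log2 0.04, SE 0.104). Pparg was low, with 25, 28 and 33 counts in KO and 38, 32 and 39 counts in WT. The groups overlapped by CPM, and the log2 value was -0.32 (SE 0.279, 95% interval -0.94 to 0.30, edgeR adjusted p = 0.819). Esrra, an orphan receptor that drives mitochondrial genes, was at 39.2, 43.0 and 39.0 CPM in KO and 47.8, 41.8 and 41.0 CPM in WT (log2 -0.11, SE 0.0868, edgeR adjusted p = 0.807).

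Among 15 LXR target genes 13 were tested, 8 above 0 and 5 below, with a median log2 value of 0.08, and 0 passed with edgeR. DESeq2 likewise called none of the genes in this or the other lists. The gene with an unadjusted p under 0.05 was Arl4c, a small GTPase of cholesterol export, at 446, 491 and 416 CPM in KO and 369, 418 and 378 CPM in WT (log2 0.22, SE 0.0848, edgeR adjusted p = 0.703). That is 7.69% of the LXR targets tested, where 6.92% of all tested genes had such a p. Next by p were the desaturase Scd2 (log2 -0.26, SE 0.152), Mylip, the ubiquitin ligase that removes the LDL receptor (0.24, SE 0.165), and the fatty acid synthase Fasn (-0.16, SE 0.114). The value of Scd2 was -0.11 without WT replicate 2, and that of Mylip 0.06 without KO replicate 2. Of 16 PPAR target genes 14 were tested, 7 above and 7 below 0, with a median of 0.004, and 0 passed with edgeR. Unadjusted, 2 were higher and 0 lower at p under 0.05, or 14.3%, where 6.92% of all tested genes had such a p. KO lay wholly above WT for the same 2 genes, or 14.3%, where 6.11% of all tested genes did so. Plin2, the coat protein of lipid droplets, was at 553, 483 and 506 CPM in KO and 476, 382 and 369 CPM in WT. KO lay wholly above WT (log2 0.33, SE 0.104, edgeR adjusted p = 0.701; unadjusted p = 0.0103). Cpt1a, which carries fatty acids into mitochondria, was at 142, 136 and 133 CPM in KO and 131, 112 and 115 CPM in WT, again without overlap (log2 0.20, SE 0.0785, edgeR adjusted p = 0.703). Slc25a20, the mitochondrial carrier of acylcarnitines, had a log2 value of -0.09 (SE 0.0944).

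REV-ERB and ROR receptors compete for the same DNA element and tie the circadian clock to metabolism. Nr1d1 (REV-ERB alpha), a repressor whose RNA swings with the time of day, was at 24.1, 23.6 and 15.9 CPM in KO and 13.2, 18.8 and 17.5 CPM in WT. KO replicates 1 and 2 were above all WT libraries and KO replicate 3 was within them (log2 0.36, SE 0.185, 95% interval -0.06 to 0.78, edgeR adjusted p = 0.725). Leaving out 1 library gave values from 0.22, without WT replicate 1, to 0.53, without KO replicate 3. Nr1d2 (REV-ERB beta) was at 24.3, 23.2 and 22.2 CPM in KO and 19.9, 23.3 and 21.7 CPM in WT (log2 0.10, SE 0.0965). Rora, an activator at the same element that also marks some T cells and innate lymphoid cells, was at 12.7, 18.3 and 11.5 CPM in KO and 8.98, 12.6 and 10.2 CPM in WT. Its groups overlapped (log2 0.42, SE 0.196, edgeR adjusted p = 0.722), and the value was 0.19 without KO replicate 2. The summed T and NK cell markers were highest in KO replicate 2, at 245 CPM, and lowest in WT replicate 1, at 134 CPM. Those are the same libraries as for Rora. Il7r, at 149.5, 178.3 and 155.1 CPM in KO and 112.6, 146.5 and 136.8 CPM in WT, made up most of each sum. No sum was taken without Il7r, and the part of these markers in the Rora values was not tested.

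Nr1d1 and Thra end on opposite strands of chromosome 11 and share 263 exonic bases, 8.5% of the merged exons of Nr1d1 and 5.7% of those of Thra, so the counts of both are uncertain to that extent. Of 18 clock genes 16 were tested, with 12 above 0 and a median log2 value of 0.13, and 0 passed with edgeR. The 3 genes with an unadjusted p under 0.05, or 18.8%, were all higher in KO, where 3.86% of all tested genes were higher at that p, 6.92% passed it in either direction and 49.8% had a log2 value above 0. Tef, an activator of the output of the clock, was at 25.8, 23.4 and 26.1 CPM in KO and 17.6, 21.2 and 17.4 CPM in WT, without overlap (log2 0.42, SE 0.109, edgeR adjusted p = 0.694; unadjusted p = 0.00305). The repressor Cry1 had a log2 value of 0.30 (SE 0.107) and the clock kinase Csnk1e one of 0.15 (SE 0.0671). KO lay wholly above WT for 2 of the 16, Tef and Csnk1e, or 12.5%, where 6.11% of all tested genes did so. Per2, a core repressor, was at 41.7, 51.9 and 38.3 CPM in KO and 19.8, 41.4 and 34.1 CPM in WT, with overlap (log2 0.47, SE 0.245), and its value was 0.22 without WT replicate 1. Without both KO replicate 2 and WT replicate 1, a setting chosen after the data were seen, Per2 was at 0.09. In that setting Tef was at 0.43, Cry1 at 0.33 and Csnk1e at 0.14. The counts and the median of this list were taken with all 6 libraries only. Arntl and Clock, the activators that start the cycle, had log2 values of 0.08 (SE 0.113) and -0.02 (SE 0.0727). The labels give no time of day for the collection.

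The glucocorticoid receptor gene overlapped between the groups. Nr3c1 (chromosome 18, 39410545 to 39519421, minus strand, GRCm38) was at 85.5, 86.1 and 81.5 CPM in KO and 89.1, 85.9 and 84.9 CPM in WT. The log2 fold change was -0.04 (SE 0.0657), with a 95% interval of -0.19 to 0.11. Esr1, the estrogen receptor alpha, was low, at 6.49, 8.82 and 6.51 CPM in KO and 8.57, 8.11 and 7.88 CPM in WT, and overlapped (log2 -0.17, SE 0.164, edgeR adjusted p = 0.839). Without KO replicate 2 its value was -0.33.

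Tsc22d3 (NCBI Gene 14605, chromosome X, 140539528 to 140600659, minus strand, GRCm38) encodes GILZ, a leucine zipper protein induced by glucocorticoids that restrains inflammatory signalling. It was at 92.7, 90.1 and 86.6 CPM in KO libraries, against 53.7, 79.2 and 74.2 CPM in WT libraries. KO lay above WT without overlap, and WT replicate 1 was well below the other WT libraries. The log2 fold change was 0.38 (SE 0.129, 95% interval 0.09 to 0.67) and did not pass (edgeR adjusted p = 0.701; unadjusted p = 0.017). It was 0.23 without WT replicate 1. Fkbp5, which encodes a cochaperone that lowers the affinity of the receptor for its hormone, was at 77.5, 63.6 and 73.6 CPM in KO and 61.9, 72.2 and 71.3 CPM in WT. Its groups overlapped (log2 0.06, SE 0.0940, 95% interval -0.15 to 0.27), and the difference between the log2 values of these genes was not tested.

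Tsc22d3 has 3 starts in RefSeq, and the 250 bases before 1 of them (GRCm38.p6, chrX:140600523-140600772, minus strand) are shown because they hold the letters TGTTCT, an arm of the palindrome that the glucocorticoid receptor binds, in capitals 185 to 180 bases before the start.
Tsc22d3: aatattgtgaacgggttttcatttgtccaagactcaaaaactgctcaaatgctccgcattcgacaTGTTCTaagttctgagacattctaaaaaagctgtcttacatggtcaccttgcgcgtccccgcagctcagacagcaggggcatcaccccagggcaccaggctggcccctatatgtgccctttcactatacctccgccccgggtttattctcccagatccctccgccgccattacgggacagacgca
TGTTCT, searched on both strands, occurred in 16.1% of all windows and in those of 4 members. The full palindrome, AGAACA and TGTTCT with NNN between them, occurred in 3 of the 32851 windows and in none of the 49 windows of members, which says only that these letters are not within 250 bases of those starts.

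Of 18 further genes that glucocorticoids are known to induce or change, 17 were tested, with 15 above 0 and a median log2 value of 0.25, and 0 passed with edgeR. Unadjusted, 3 were higher and 0 lower at p under 0.05, or 17.6% of those tested, where 6.92% of all tested genes had such a p, 3.86% being higher in KO, and 49.8% had a log2 value above 0. Ddit4, which encodes an inhibitor of mTOR signalling, was at 83.2, 64.9 and 78.0 CPM in KO and 55.6, 59.0 and 55.2 CPM in WT, without overlap (log2 0.41, SE 0.0948, edgeR adjusted p = 0.694; unadjusted p = 0.00147). The transcription factor gene Cebpd was at 18.8, 16.1 and 16.2 CPM in KO and 11.8, 13.3 and 13.9 CPM in WT, also without overlap (log2 0.39, SE 0.117, edgeR adjusted p = 0.701). KO lay wholly above WT for these 2 of the 17, or 11.8%, where 6.11% of all tested genes did so. Thbs1, a matrix glycoprotein, had a log2 value of 0.26 (SE 0.108) and Fkbp4, a cochaperone of the receptor, one of -0.21 (SE 0.107). Without both KO replicate 2 and WT replicate 1, Ddit4 was at 0.50, Cebpd at 0.37, Thbs1 at 0.30 and Fkbp4 at -0.06. Per1 went from 0.34 to 0.008. The counts and the median of this list were taken with all 6 libraries only. Per1 is also counted among the clock genes and Fkbp4 among the chaperones, so the lists are not separate. Among 11 chaperones of the receptor and enzymes of its hormone, 10 were tested, 4 above 0 and 6 below, with 0 passing (edgeR). Hsd11b1, which regenerates active glucocorticoid inside cells, was low, at 4.83, 3.36 and 3.65 CPM in KO and 1.38, 3.27 and 2.14 CPM in WT. KO lay just above WT (log2 0.80, SE 0.316, edgeR adjusted p = 0.707; unadjusted p = 0.0301), and the value was 0.55 without WT replicate 1. Of the 10 tested, Hsd11b1 alone had KO wholly above WT, or 10%, where 6.11% of all tested genes did so. It was also the 1 gene of them with an unadjusted p under 0.05, where 6.92% of all tested genes had such a p. The cochaperone Stip1 had a log2 value of -0.22 (SE 0.105) and Dnajb1, a heat shock cochaperone, one of 0.22 (SE 0.138), which was 0.09 without KO replicate 3.

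**Figure D4:**
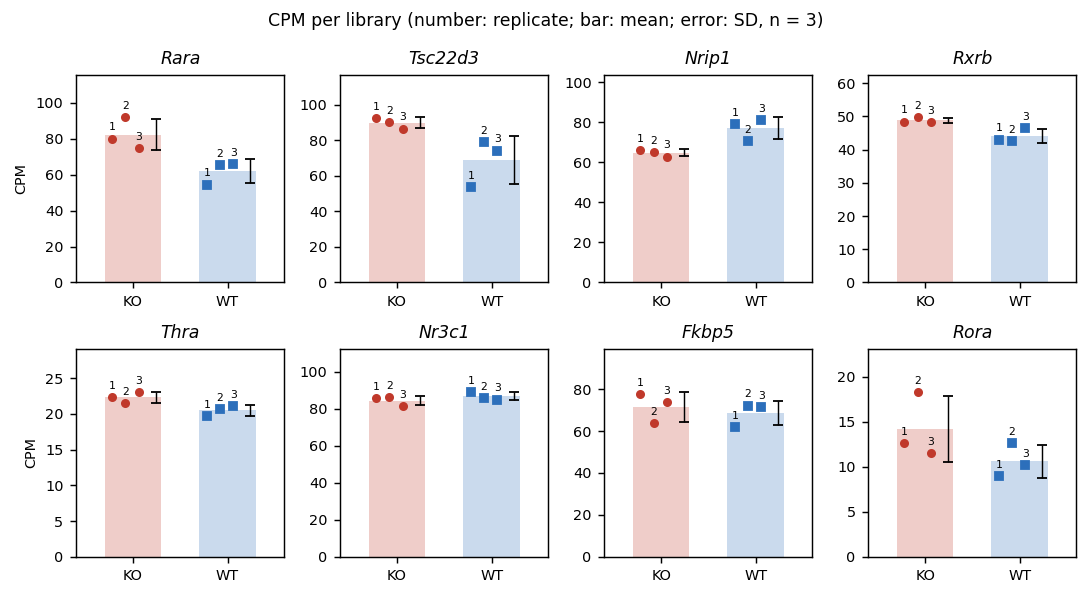
CPM of 8 members in each library, KO left of WT, each axis starting at 0. Points are libraries with their replicate numbers, bars are means and error bars are SD (n = 3 each). Rara, Tsc22d3, Rxrb and Thra lie higher in every KO library and Nrip1 lower, while Nr3c1, Fkbp5 and Rora overlap.

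The vitamin D receptor and the thyroid hormone receptor alpha were both detected well above the floor. Vdr was at 73.0, 85.3 and 74.6 CPM in KO and 52.0, 76.5 and 78.8 CPM in WT, overlapping (log2 0.17, SE 0.151). WT replicate 1 was the low library, and without it the log2 value was -4e-04. Thra was at 22.3, 21.5 and 23.1 CPM in KO and 19.7, 20.6 and 21.1 CPM in WT, KO above WT by less than 1 CPM at the nearest pair (log2 0.12, SE 0.0895, edgeR adjusted p = 0.791). Of 7 listed genes of vitamin D metabolism and response 2 were tested and 0 passed with edgeR: the endotoxin coreceptor Cd14 (log2 -0.05, SE 0.0805) and the sterol hydroxylase Cyp27a1 (log2 -0.01, SE 0.190). Cyp24a1, the enzyme that breaks down active vitamin D and its most direct target, had no count in any library.

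A further 5 members were grouped as orphan receptors, for which no regulating ligand is settled, and all overlapped between the groups. Nr2c1 was at 13.2, 11.97 and 11.7 CPM in KO and 12.1, 12.04 and 12.3 CPM in WT (log2 0.02, SE 0.112). Nr2c2, its partner, was at 40.0, 41.7 and 41.6 CPM in KO and 33.8, 38.6 and 40.8 CPM in WT (log2 0.12, SE 0.0869). Nr2f6, a repressor of cytokine genes in T cells, was at 27.99, 30.2 and 32.2 CPM in KO and 29.8, 34.7 and 26.9 CPM in WT (log2 -0.01, SE 0.108). Nr2f2 (COUP-TFII), a gene of veins and stroma, was at 6.03, 4.67 and 5.42 CPM in KO and 3.21, 6.15 and 5.48 CPM in WT (log2 0.12, SE 0.245). Nr6a1, known from germ cells and the embryo, was at 2.34, 2.99 and 2.02 CPM in KO and 2.30, 2.27 and 2.04 CPM in WT (log2 0.15, SE 0.254). Of the merged exons, 54.4% of Nr2f6 lie opposite Ocel1 and 30.7% of Nr2c2 opposite Mrps25, so these counts are uncertain without a stated strand setting.

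Of the 5 coregulator members, Nrip1 was the one whose groups did not overlap. That is 20%, where 12.4% of all tested genes did not overlap in either direction. Nrip1 (NCBI Gene 268903, chromosome 16, 76287400 to 76373827, minus strand, GRCm38) encodes RIP140, which binds liganded receptors and recruits repressors, and in macrophages is also known as a coactivator of NF-kappaB. It was at 66.3, 65.3 and 62.8 CPM in KO libraries, against 79.2, 70.8 and 80.9 CPM in WT libraries. All KO values were below all WT values. The log2 fold change was -0.25 (SE 0.0750, 95% interval -0.42 to -0.08), a ratio of 0.842, and it did not pass (edgeR adjusted p = 0.701; unadjusted p = 0.00807, rank 127 of 12136). Leaving out any 1 library gave log2 values from -0.30 to -0.21.

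Ncor1, the scaffold that brings HDAC3 to unliganded receptors, was at 182, 170.0 and 174 CPM in KO and 183, 181 and 174 CPM in WT (log2 -0.03, 95% interval -0.18 to 0.11). Ncoa1 was at 54.7, 52.5 and 46.4 CPM in KO and 54.8, 49.99 and 52.5 CPM in WT (log2 -0.03, 95% interval -0.22 to 0.15). Ncoa2 was at 57.0, 65.1 and 52.4 CPM in KO and 55.3, 53.5 and 56.0 CPM in WT (log2 0.08, 95% interval -0.11 to 0.28). Ncoa3 was at 143, 142 and 127 CPM in KO and 139, 133 and 134 CPM in WT (log2 0.02, 95% interval -0.14 to 0.18). All 4 overlapped between the groups. Of 24 further coregulators 23 were tested, with 15 above 0, a median log2 value of 0.02 and a span from -0.13 to 0.14. None passed with edgeR, and 0 had an unadjusted p under 0.05, where 6.92% of all tested genes had such a p. Smallest in p were the acetyltransferase Kat2b (log2 -0.13, SE 0.0729), Brd8 (0.14, SE 0.0830), the arginine methyltransferase Carm1 (0.10, SE 0.0697) and Tbl1xr1, a subunit of the NCOR complex (0.11, SE 0.0784). KO lay wholly above WT for 1 of the 23, Carm1, or 4.35%, where 6.11% of all tested genes did so. It lay wholly below for 2, Kat2b and Prmt1, or 8.7%, where 6.3% of all tested genes did so.

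**Figure D5:**
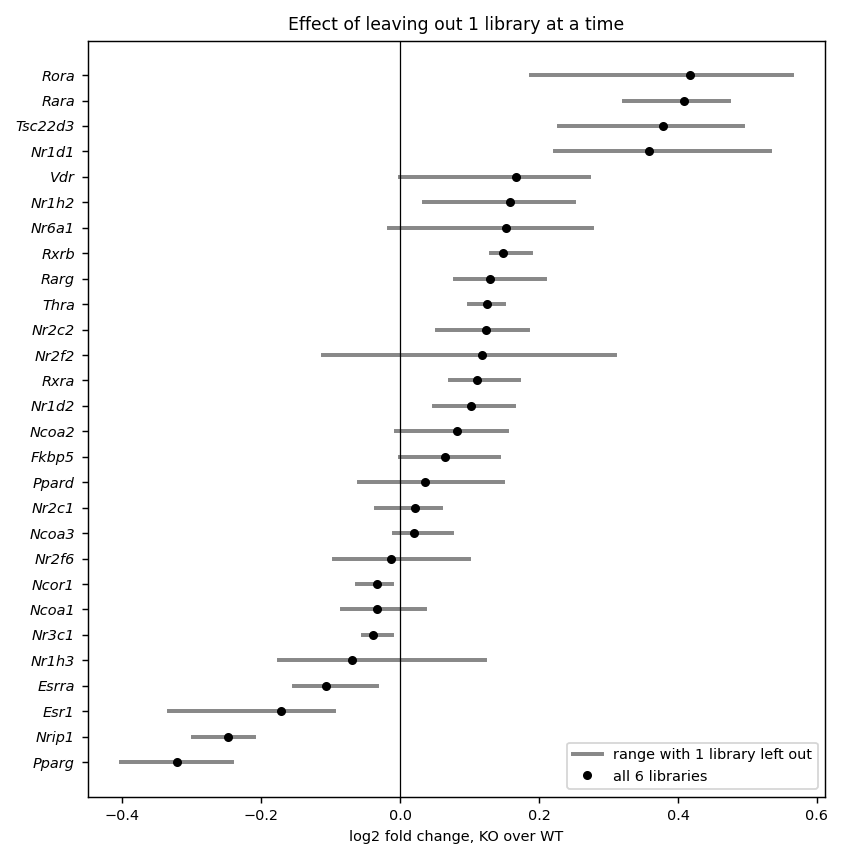
log2 fold change of KO over WT for each tested member with all 6 libraries (dot) and its range when 1 library at a time is left out (line). Rara stays between 0.32 and 0.47 and Nrip1 between -0.30 and -0.21, while the lines of several members near 0 cross it.

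Receptors outside the 35 were mostly too low to test. Of 21 further nuclear receptor genes, 10 had no count in any library and 5 were tested. The NR4A receptors, which act without a known ligand and are induced within minutes of a stimulus, made up 3 of those tested. Nr4a1 was at 1146, 1116 and 1100 CPM in KO and 874, 1081 and 976 CPM in WT, KO above WT (log2 0.20, SE 0.0874, edgeR adjusted p = 0.713; unadjusted p = 0.0477). Of the 5 tested, Nr4a1 alone had KO wholly above WT, or 20%, where 6.11% of all tested genes did so. It was also the 1 gene of them with an unadjusted p under 0.05, where 6.92% of all tested genes had such a p. Nr4a2 was at 603, 683 and 518 CPM in KO and 391.5, 553 and 535 CPM in WT, overlapping (log2 0.29, SE 0.146; 0.14 without WT replicate 1). Nr4a3 was at 480, 522 and 456 CPM in KO and 456, 571 and 546 CPM in WT, overlapping (log2 -0.11, SE 0.0960). Nr2f1 was low, with 57, 47 and 67 counts in KO and 43, 73 and 31 counts in WT and a log2 value of 0.24 (SE 0.323). No gene of the set passed with edgeR.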

How the data were processed

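The labels give mirVana for RNA extraction and a stranded TruSeq mRNA kit for the libraries. The submitters' processing notes list Trimmomatic, HISAT2, Cufflinks, HTSeq and mm10 with no versions or roles. What the authors deposited are read counts per gene, not normalized; the annotation, strand setting and treatment of reads with several matches are not given in the sources used here. KO was compared with WT with edgeR 4.0.16 in R 4.3.3: filterByExpr (minimum count 10, minimum total 15; 12136 genes, 99.962% of reads), TMM factors, robust quasi-likelihood fit with genotype as the only term, Benjamini-Hochberg adjustment over all tested genes. SE is the log2 fold change over the root of the F statistic. Levels per kb used merged exons of GENCODE M21 (GRCm38, the assembly mm10 names). Promoter sequences are from RefSeq (GRCm38.p6; 31 of 35 members matched). One count was worth 0.0493 to 0.0525 CPM; intervals and floors cover only what the fit or counting shows.

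The members and lists were chosen with earlier results of these data known. Members with an unadjusted p under 0.05 or at least 10 CPM are given by library. From each further list up to 4 tested genes with the smallest p are named. A few others are named as chosen after their values were seen (Arntl, Clock, Aldh1a1, Aldh1a3, Csf3r, Cyp24a1, Il7r, Mmp9, Per1, Prmt1). Trac, Trbc2 and Ighm are not used here. A gene that this rule names is not reported here. Alternatives tried were other scaling (RLE, upper quartile, totals), other filters, DESeq2 1.42.0, limma-voom (limma 3.58.1) with and without quality weights, no robust shrinkage, a replicate block and each library left out.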

Additional observations from a re-analysis of the deposited data

How the results depend on the processing

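No member passed under any alternative, nor without both KO replicate 2 and WT replicate 1. Across all genes, 2 passed with edgeR and 28 with DESeq2. Members higher in KO at an unadjusted p under 0.05 numbered 2, and 2 to 5 when 1 library was left out (5 without KO replicate 3). Of all tested genes, 840 had such a p in either direction with all 6 libraries, and 1520 without KO replicate 3. The number of members lower was 1 throughout. With the replicate number as a block there were 3 higher and 1 lower and still 0 passed; deviations of same-numbered libraries correlated at -0.057, -0.094 and -0.109, so the numbers were not taken to pair them. Scaling changed the sign of no member and moved the median of all genes by less than 0.01. The value of 23 members moved by over 1.5 times when 1 library was left out.

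Signs changed for 13 members, none of them called. Without KO replicate 1 the log2 values were -0.0344 for Nr2c1, 0.0378 for Nr2f6 and -0.0092 for Ncoa3. Without KO replicate 2 they were -0.0589 for Ppard, -0.0164 for Nr6a1, -0.0065 for Ncoa2 and -0.003 for Ncoa3. Without KO replicate 3, Ncoa1 was at 0.0362. Without WT replicate 1 they were 0.122 for Nr1h3, -4e-04 for Vdr, -0.1113 for Nr2f2, 2e-04 for Ncoa1 and -7e-04 for Fkbp5. Without WT replicate 2, Nr2f6 was at 0.0985, and with limma-voom and quality weights at 0.0133. Without both KO replicate 2 and WT replicate 1 they were -0.0592 for Ppard, -0.0064 for Nr1h2, 0.0238 for Nr1h3, -0.0666 for Vdr, -0.0157 for Nr2f2 and 0.009 for Ncor1. The cause was not tested.

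Over the libraries left out 1 at a time, the far ends of the ranges of these members were 0.1474 for Ppard, 0.2507 for Nr1h2, -0.1745 for Nr1h3, 0.2716 for Vdr, 0.0587 for Nr2c1, 0.3099 for Nr2f2, -0.0953 for Nr2f6, 0.2768 for Nr6a1, -0.0616 for Ncor1, -0.084 for Ncoa1, 0.1544 for Ncoa2, 0.0747 for Ncoa3 and 0.1418 for Fkbp5. Of the other genes named from the lists, none of them called, Cyp27a1, Clock and Nr2f1 changed sign when 1 library was left out, and the values of many others moved by over 1.5 times.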
